A study of Mus musculus with 15 samples.

Results

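The genes followed here are the antiproliferative genes Tob1, Tob2, Btg1 and Btg2, the small GTPase gene Rhob, the receptor feedback gene Errfi1 and the adhesion scaffold gene Nedd9. They are 7 of the 42396 gene entries in each deposited table of mouse muscle RNA. The genes were chosen as named entries because of how they read in C-del against mock muscle in both tables, so their differences between C-del and mock are given as a description. Calls of these genes in that contrast are only counted, beside the share over all genes. RNA-seq counts came from the tibialis anterior, a fast hindlimb muscle, of adult C57BL/6 mice. The hindlimb had been given AAV6, an adeno-associated virus, 2 months before the muscles were taken. The virus carried LSMEM2 C-del, a form of a leucine-rich single-pass membrane protein that the labels do not explain further, or EGFP as the mock. All 4 groups had thus received AAV6: female C-del (4 libraries), female mock (3), male C-del (4) and male mock (4). The promoter in the virus, the age of the mice and whether each library was 1 animal are not stated, so spread between libraries may be technical. Each sex has its own table, and effects of sex and of table cannot be told apart.

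TOB and BTG proteins share a domain that binds the CNOT7 and CNOT8 deadenylases of the CCR4-NOT complex, and they slow cell division by shortening the poly(A) tails of messages. Their own messages are short-lived, and Btg2 is a classic immediate early gene. Rhob encodes a short-lived endosomal small GTPase, Errfi1 encodes MIG6, which binds and inhibits the kinase domains of ErbB receptors, and Nedd9 encodes HEF1, a Cas-family scaffold of focal adhesions first described in lymphocytes. In adult muscle, where fibres do not divide, transcripts of this kind come from fibre nuclei and from vessels, connective tissue and blood cells. In bulk RNA, fewer cells of a type and less RNA per cell cannot be told apart.

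Total counts were 10239300 to 12054900 in female C-del, 9285150 to 10790100 in female mock, 15304500 to 17744000 in male C-del and 14297600 to 15454500 in male mock libraries. The 7 markers of skeletal muscle fibres summed to 96762 to 140094 CPM (counts per scaled library size) over the 15 libraries and the 6 heart markers to at most 27.4 CPM; the labels name skeletal muscle, although their extraction text speaks of hearts. Lsmem2, the delivered gene, was at 1336, 2090, 1670 and 2678 CPM in female C-del libraries against 30.5, 29.2 and 32.8 CPM in female mock. In males it was at 487, 2384, 1884 and 1300 CPM with C-del against 30.0, 29.9, 29.4 and 28.7 CPM with mock. Female mock libraries 2 and 3 stood apart: their 12 lymphocyte markers summed to 563 and 31.5 CPM, against 2.63 to 6.48 CPM in the other libraries. In library 2 all 12 of those markers and 9 of 10 macrophage markers were at their highest of the 15 libraries. Libraries 2 and 3 were also unlike each other. The chi-square per gene, a measure of how far the counts of 2 libraries differ, was 43.8 between them. It was 25.2 between female mock libraries 1 and 2 and 39.0 between 1 and 3, against 2.62 to 14.7 within the other groups. What else than immune markers set library 3 apart was not tested. The female log2 fold change of each of the 7 genes is therefore also given against female mock library 1 alone.

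**Figure D1:**
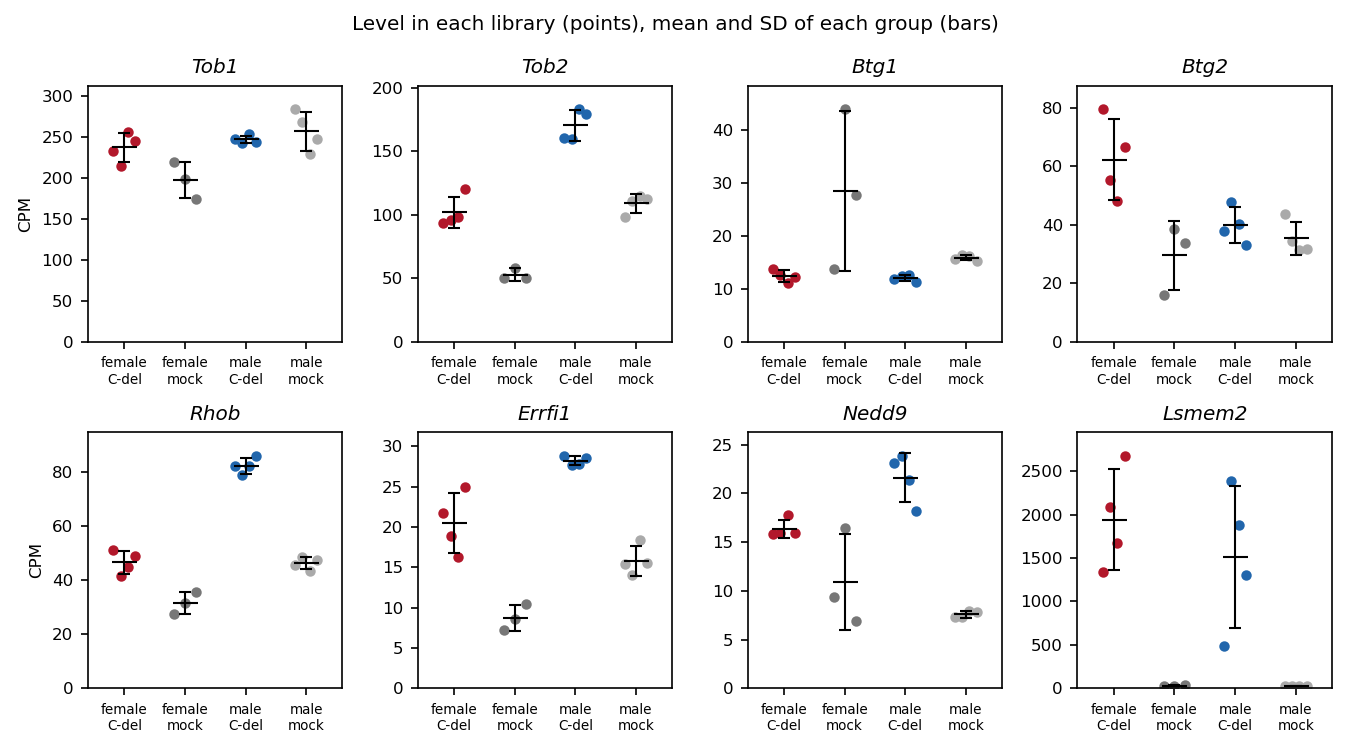
Level of each gene (CPM, axis from 0) in every library as points, with the group mean and SD as bars, for female C-del, female mock, male C-del and male mock. Tob2, Rhob and Errfi1 lie higher with C-del in both sexes with no overlap, while in female mock Btg1 and Nedd9 spread over 13.7 to 43.8 CPM and 6.93 to 16.4 CPM. The last panel shows Lsmem2.

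Tob2 was 1.93-fold higher with C-del in females and 1.56-fold higher in males. It had 93.8, 95.9, 98.4 and 120.2 CPM in female C-del libraries against 49.9, 58.5 and 50.4 CPM in female mock libraries. In males it had 160.5, 159.8, 183 and 179 CPM with C-del against 97.9, 111, 115 and 113 CPM with mock. No C-del library overlapped a mock library of its sex. The log2 fold change was 0.95 ± 0.12 (SE) in females and 0.64 ± 0.061 in males, and 1.04 ± 0.14 in females against mock library 1 alone. Over the 4 groups the order of mean levels was male C-del (171 ± 12.3 CPM), male mock (109 ± 7.57), female C-del (102 ± 12.2) and female mock (52.9 ± 4.85; SD, n = 4, 4, 4 and 3), of which male mock and female C-del overlapped.

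Tob1, the paralog of Tob2 and the most abundant of the 7 genes per length of message, had the smallest differences between C-del and mock. Its CPM was 233, 215, 257 and 245 in female C-del libraries against 219.5, 199 and 175 in female mock libraries. In males the values were 248, 244, 254 and 244 CPM with C-del against 284, 269, 230.0 and 248 CPM with mock. The groups overlapped in both sexes, with log2 fold changes of 0.27 ± 0.12 (SE) in females, 0.12 ± 0.10 against female mock library 1 alone, and −0.06 ± 0.057 in males. The averages over both sexes were 0.80 ± 0.067 for Tob2 and 0.10 ± 0.062 for Tob1 on the log2 scale.

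Btg2 was higher with C-del in females and close to mock in males. Female C-del libraries had 79.6, 55.2, 48.0 and 66.6 CPM and female mock libraries 16.2, 38.6 and 33.9 CPM, with no overlap. Male C-del libraries had 37.9, 47.9, 40.3 and 33.1 CPM and male mock libraries 43.7, 34.5, 31.6 and 31.6 CPM, which overlapped. The log2 fold change was 1.07 ± 0.29 (SE) in females and 0.17 ± 0.13 in males. Against female mock library 1 alone it was 1.95 ± 0.38, since library 1 had less Btg2 than the 2 mock libraries with high immune markers. Female C-del was the highest group (62.4 ± 13.8 CPM), followed by male C-del (39.8 ± 6.16), male mock (35.4 ± 5.75) and female mock (29.6 ± 11.8; SD, n = 4, 4, 4 and 3), and the last 3 overlapped one another.

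Btg1, which with Btg2 keeps T cells quiescent, was the one gene of the 7 that was lower with C-del in both sexes. In males it had 11.8, 12.3, 12.7 and 11.2 CPM with C-del against 15.6, 16.3, 16.3 and 15.3 CPM with mock, with no overlap and a log2 fold change of −0.41 ± 0.073 (SE). In females it had 13.8, 12.5, 11.2 and 12.2 CPM with C-del against 13.7, 43.8 and 27.7 CPM with mock. The female log2 fold change of −1.21 ± 0.32 rested on mock libraries 2 and 3: against mock library 1 alone it was −0.14 ± 0.17. Those 2 libraries are the ones with lymphocyte markers at 563 and 31.5 CPM and macrophage markers at 598 and 298 CPM, against 4.89 and 94.5 CPM in mock library 1.

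**Figure D2:**
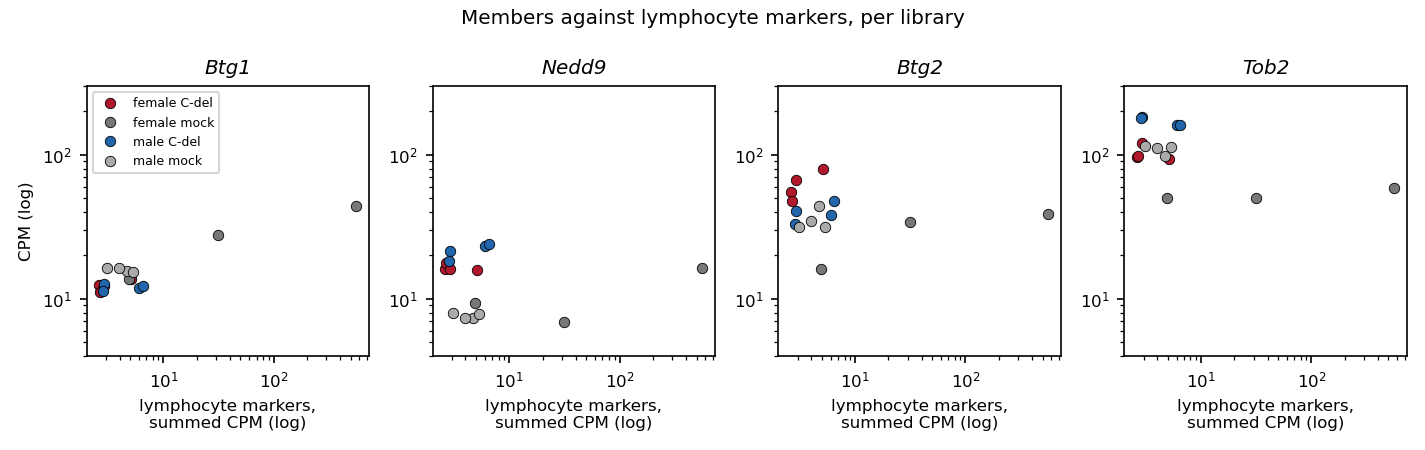
Level of Btg1, Nedd9, Btg2 and Tob2 (CPM, log axis) against the summed level of 12 lymphocyte markers (CPM, log axis), 1 point per library, for female C-del, female mock, male C-del and male mock. Female mock libraries 2 and 3 lie to the right at 563 and 31.5 CPM of markers, where Btg1 reads 43.8 and 27.7 CPM, Nedd9 16.4 and 6.93 CPM, and Tob2 stays at 58.5 and 50.4 CPM.

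Rhob was higher with C-del in every library of both sexes. Its levels were 51.4, 41.5, 44.9 and 48.9 CPM in female C-del libraries against 27.4, 31.6 and 35.6 CPM in female mock libraries. With C-del, male libraries had 82.3, 79.0, 82.4 and 86.1 CPM, against 45.7, 48.8, 43.6 and 47.4 CPM with mock. The log2 fold change was 0.57 ± 0.13 (SE) in females, 0.77 ± 0.14 against female mock library 1 alone, and 0.83 ± 0.052 in males. As with Tob2, female C-del (46.7 ± 4.37 CPM) and male mock (46.4 ± 2.24) overlapped in the order of levels, between male C-del (82.5 ± 2.91) at the top and female mock (31.5 ± 4.08; SD, n = 4, 4, 4 and 3) at the bottom.

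Errfi1 was 2.34-fold higher with C-del in females and 1.78-fold higher in males. Female C-del libraries had 21.7, 18.9, 16.3 and 24.9 CPM, and female mock libraries 7.17, 8.54 and 10.5 CPM. Male C-del libraries had 28.8, 27.7, 27.7 and 28.6 CPM, and male mock libraries 15.4, 13.98, 18.4 and 15.6 CPM. Neither sex showed any overlap, and the log2 fold change was 1.23 ± 0.19 (SE) in females, 1.51 ± 0.26 against female mock library 1 alone, and 0.83 ± 0.077 in males. The tables carry a further Errfi1 entry with equal values in all 15 libraries, and the values here are those of 1 of them. Whether the reads were divided between the entries or listed in both is not given, so the level of the gene may be understated. With both entries summed the log2 fold changes were 1.22 in females and 0.83 in males. Equal entries leave the fold change nearly as it was, so this is no check of it. Of 2379 such further entries, 497 equalled their first entry in all libraries.

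Nedd9 was 2.83-fold higher with C-del in males, the largest male difference of the 7. It had 23.1, 23.9, 21.4 and 18.2 CPM in male C-del libraries against 7.30, 7.33, 7.96 and 7.85 CPM in male mock libraries, with a log2 fold change of 1.503 ± 0.095 (SE). Female C-del libraries were close to one another at 15.8, 15.96, 17.8 and 15.96 CPM, while female mock libraries had 9.35, 16.4 and 6.93 CPM and overlapped them through library 2. The female log2 fold change was 0.57 ± 0.26, 1.02 ± 0.16 without mock library 2, and 0.82 ± 0.16 against mock library 1 alone. Library 2 is the one with the most lymphocyte markers, and the part of those cells in its Nedd9 level was not tested.

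**Figure D3:**
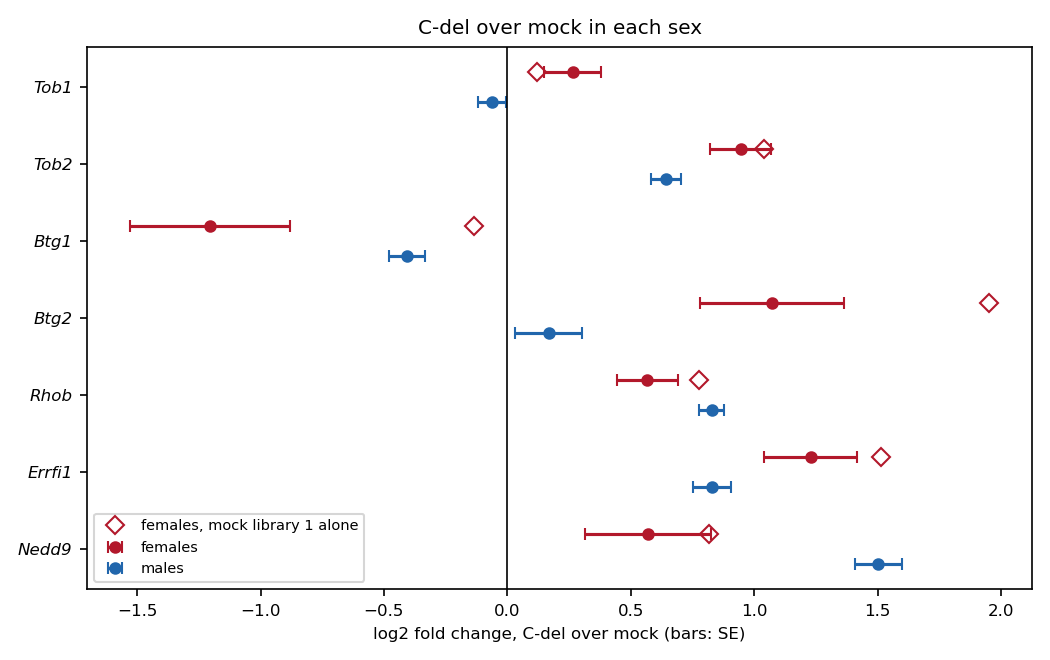
Log2 fold change of C-del over mock for each gene in females and males (filled points, bars are SE), with open diamonds for females against mock library 1 alone. Tob2, Rhob, Errfi1 and Nedd9 lie to the right of 0 in both sexes, Btg2 in females at 1.07, and the diamond of Btg1 lies at −0.14 against −1.21 with all 3 mock libraries.

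In males 4 of the 7 genes were called higher and 1 lower by edgeR's quasi-likelihood test at a Benjamini-Hochberg adjusted p under 0.05, beside 11.2% of all genes called. Among females 0 of 7 were called with edgeR, beside 0.0141% of all genes, that is 2 of 14220. With an unadjusted p below 0.05 in edgeR, 5 were higher and 1 lower, beside 1692 of the 14220 genes. With DESeq2, 4 were called higher and 1 lower. The count over all genes varied with the setting: the C-del effect in females had 1050 calls without female mock library 1, 777 in the joint fit of all libraries and 512 with DESeq2. Averaged over both sexes, 5 were called higher and 1 lower, beside 4.41% of all genes. Of these, Btg2 kept its call in 7 of 20 alternatives and Btg1 in 19 of 20, losing it without female mock libraries 2 and 3. Male C-del and mock did not overlap for 4 genes that were higher and 1 that was lower, where 17.1% of all genes did not overlap, and female C-del and mock did not overlap for 4 higher genes, where 9.86% did not. Because the genes were selected on these contrasts, nothing is read from these counts.

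Differences of the C-del effect between the sexes did not pass for any of the 7 genes. The female minus male difference in log2 fold change was 0.32 ± 0.12 (SE) for Tob1, 0.30 ± 0.13 for Tob2, 0.90 ± 0.33 for Btg2 and 0.39 ± 0.19 for Errfi1. It was −0.81 ± 0.34 for Btg1, −0.26 ± 0.12 for Rhob and −0.94 ± 0.26 for Nedd9. None of the 7 was called with edgeR, beside 0.354% of all genes. With an unadjusted p below 0.05 in edgeR, 3 were higher and 3 lower, beside 2574 of all 15272 genes. With DESeq2, 0 were called higher and 1 lower. With female mock library 1 alone the difference of Btg1 was 0.26 ± 0.15, of the other sign, and that of Btg2 was 1.77 ± 0.38. In the same setting it was 0.17 ± 0.12 for Tob1, 0.39 ± 0.15 for Tob2, −0.06 ± 0.13 for Rhob, 0.67 ± 0.25 for Errfi1 and −0.69 ± 0.19 for Nedd9. Without mock library 2 only, that of Nedd9 was −0.48 ± 0.18.

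Control muscle differed between females and males in some of these genes. The choice of the genes did not use this comparison. It did use the same mock libraries, so the adjusted p values given here are not independent of that choice. Tob2 was 2.06-fold lower in female mock than in male mock libraries (52.9 ± 4.85 against 109 ± 7.57 CPM, SD, n = 3 and 4; log2 difference −1.04 ± 0.10, SE; edgeR, adjusted p = 5.97e-06). Errfi1 was 1.81-fold lower (−0.86 ± 0.15; edgeR, adjusted p = 0.000911), Rhob 1.47-fold lower (−0.56 ± 0.093; adjusted p = 0.000674) and Tob1 1.30-fold lower (−0.38 ± 0.091; adjusted p = 0.00714). Every female mock library lay below every male mock library for these 4 genes. Btg1 was higher in female mock (0.85 ± 0.24; edgeR, adjusted p = 0.0191), but without libraries 2 and 3 its difference was −0.22 ± 0.13 (adjusted p = 0.327), of the other sign and not passing. Differences of Btg2 (−0.25 ± 0.25; edgeR, adjusted p = 0.489) and Nedd9 (0.54 ± 0.20; edgeR, adjusted p = 0.0606) did not pass. Female libraries also had fewer counts, and sex, table and depth cannot be told apart here.

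Of the 7 genes, 1 was thus called higher and 4 lower in female mock, beside 23.3% of all genes (3556 of 15272), and 4 did not overlap, beside 25.6%. Without female mock libraries 2 and 3, which left 1 female library, the comparison of female mock minus male mock had 1808 calls, among them Tob2 (−1.13 ± 0.14), Errfi1 (−1.15 ± 0.22) and Rhob (−0.76 ± 0.11), while Tob1 did not pass (−0.24 ± 0.10; edgeR, adjusted p = 0.156). In those fits the single library is assumed to vary like the other groups.

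Per kilobase of exon, with exon lengths from GENCODE M21 on GRCm38, the genes spanned a wide range of levels. Tob1 had 104 CPM per kb in female C-del, 86.4 in female mock, 108 in male C-del and 113 in male mock, at the 96.3, 95.7, 96.5 and 96.8 percentile of 13560 genes. Tob2 had 24.6, 12.8, 41.1 and 26.3 CPM per kb in the same groups, and Rhob 19.9, 13.4, 35.1 and 19.7. The lowest level of a gene in any group was that of Nedd9 in male mock, with 1.44 CPM per kb, the 28.6 percentile, and in male C-del Nedd9 had 4.11 CPM per kb. Errfi1 had 6.32, 2.70, 8.71 and 4.89 CPM per kb for 1 of its equal entries. GENCODE places transcripts on the opposite strand of Tob2, Errfi1 and Nedd9, and since strand use in counting is not given, their reads cannot be told apart from those of these partners.

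The promoters of the 7 genes were read for short motifs. RefSeq windows of GRCm38.p6, each 250 bases before to 50 bases after a transcript start, were available for all 7 genes, 8 windows in all with 2 for Errfi1. The full cAMP response element TGACGTCA stood in the window of Btg2, 166 bases before the start, and in the second window of Errfi1, 51 bases before the start, whereas 1.79% of 32851 windows of all genes held it. The Errfi1 copy lies just before a TATAA box at 28 bases before the start. Tob2 and Rhob, which were higher in both sexes, held none of the capitalised motifs and are shown beside them. The 250 bases before the start follow, 5′ to 3′ on the strand of the gene, with the cAMP response element and TATAA in capitals.
Btg2 (chr1:134079156-134079405, minus strand): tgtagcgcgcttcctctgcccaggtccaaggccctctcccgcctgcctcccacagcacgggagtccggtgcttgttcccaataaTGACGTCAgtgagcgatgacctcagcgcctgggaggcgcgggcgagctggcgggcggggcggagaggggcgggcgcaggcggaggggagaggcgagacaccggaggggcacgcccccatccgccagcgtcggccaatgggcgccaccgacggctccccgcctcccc
Errfi1 (chr4:150854820-150855069, plus strand): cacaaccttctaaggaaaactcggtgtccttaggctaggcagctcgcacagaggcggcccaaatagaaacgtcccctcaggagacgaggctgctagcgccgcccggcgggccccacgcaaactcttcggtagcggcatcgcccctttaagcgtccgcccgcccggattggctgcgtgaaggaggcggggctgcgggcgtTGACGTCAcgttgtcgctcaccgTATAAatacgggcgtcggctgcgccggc
Tob2 (chr15:81858327-81858576, minus strand): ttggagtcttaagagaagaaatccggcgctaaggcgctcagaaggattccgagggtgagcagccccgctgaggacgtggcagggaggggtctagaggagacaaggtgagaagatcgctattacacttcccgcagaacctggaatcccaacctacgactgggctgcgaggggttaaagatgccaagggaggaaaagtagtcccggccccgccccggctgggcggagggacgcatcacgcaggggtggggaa
Rhob (chr12:8500010-8500259, minus strand): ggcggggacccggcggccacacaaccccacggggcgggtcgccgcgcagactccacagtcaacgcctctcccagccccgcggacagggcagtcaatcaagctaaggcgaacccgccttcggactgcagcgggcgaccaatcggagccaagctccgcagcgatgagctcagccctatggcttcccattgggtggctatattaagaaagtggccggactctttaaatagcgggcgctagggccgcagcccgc

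Across both strands, the core TGACG, which the full element holds as well, was in the windows of Tob1, Btg1, Btg2 and Errfi1 (4 of 8, against 20.8% of all windows), and the forkhead site TGTTTAC in that of Btg1 (3.65% of all). The GC box GGGCGG was in 7 of 8 windows (35.7% of all) and TATAA in 5 of 8 (24.9% of all). No window of the 7 genes held the NR4A site AAAGGTCA (1.51% of all), the E-box CACGTG (7.15%), the SRF CArG box (1.63%) or the MEF2 box (0.557%). The second window of Errfi1 and the window of Btg2 had GC contents of 66.7% and 72.0%, against a median of 52.7% over all windows. A match of letters is a description and not a bound site.

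Within groups the 7 genes did not vary as 1 block. After subtraction of the mean of each of the 4 groups, Pearson's r of log2(CPM + 1) over the 15 libraries was positive for 14 of 21 pairs and negative for 7, from −0.58 for Tob1 and Errfi1 to 0.82 for Btg1 and Btg2. Btg1 and Btg2 kept an r of 0.67 over the 13 libraries left without female mock libraries 2 and 3. Btg1 and Nedd9 had an r of 0.51 over 15 libraries and of 0.0082 over 13. Tob1 and Tob2 had an r of −0.05 and −0.08. These values share library depth and scaling within each library and are given without a test.

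**Figure D4:**
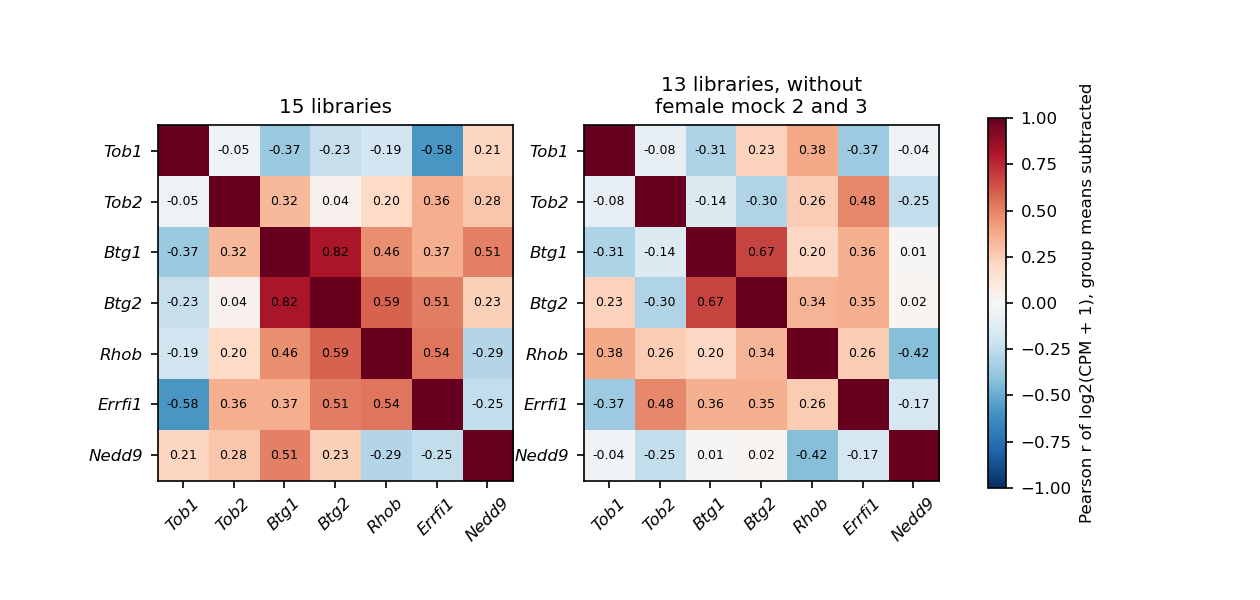
Pearson's r between the 7 genes for log2(CPM + 1) after subtraction of group means, over 15 libraries (left) and over 13 libraries without female mock 2 and 3 (right), on a colour scale from −1 to 1. The pair of Btg1 and Btg2 has the highest r in both panels, 0.82 and 0.67.

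The genes whose levels ran closest to each of the 7 over the 15 libraries, after subtraction of the mean of each table and among 11742 genes, differed from gene to gene. Nearest to Tob1 was the ubiquitin-conjugating enzyme gene Ube2o (r = 0.96, and 0.95 within groups), with Adgra3 and Myo10 after it. For Tob2 they were the water channel gene Aqp1 (r = 0.98, 0.77 within groups), the actin-binding gene Ablim3 (0.96) and the delivered gene Lsmem2 (0.95, 0.31 within groups). Btg1 ran with Irf1, Tgtp1 and Dtx3l (r = 0.97, 0.96 and 0.96), which are genes of the interferon response, and Irf1 averaged 38.8 ± 23.3 CPM in female mock libraries (SD, n = 3) against 9.59 ± 0.604 CPM in female C-del (SD, n = 4). Irf1 ranged from 13.8 to 60.0 CPM over the female mock libraries, and Btg1 was at 43.8 and 27.7 CPM in libraries 2 and 3. The r values of Btg1 include those libraries and were not taken without them. Btg2 ran with the immediate early gene Fosb (r = 0.93, 0.80 within groups), the ERK pathway inhibitor gene Spry4 (0.90, 0.73 within groups) and the vascular early-response gene Apold1 (0.90, 0.78 within groups). Fosb was low, with means of 0.521 CPM in female mock, 1.42 in male mock, 1.85 in male C-del and 3.49 in female C-del. Apold1 averaged 31.5 ± 10.8 CPM in female C-del and 4.21 ± 1.42 CPM in female mock (SD, n = 4 and 3), while males with C-del had 12.8 ± 1.62 CPM against 8.73 ± 0.622 CPM with mock (SD, n = 4 each). Closest to Rhob were the mitochondrial ATP-Mg carrier gene Slc25a25 (r = 0.95, 0.16 within groups), Otud1 and Trib1. To Errfi1 they were Tob2 itself (0.95, 0.36 within groups), Adgrg1 and Trib1. To Nedd9 they were the Krüppel-like factor genes Klf6 (0.97, 0.84 within groups) and Klf4 (0.94, 0.42 within groups) and the co-chaperone gene Dnajb1 (0.92, 0.34 within groups). Where r falls within groups, the likeness lies mainly between the groups, and shared depth and scaling enter each value.

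Of 23 listed partners of TOB and BTG in deadenylation tested in males, 2 rose and 0 fell by edgeR, where 5.8% of all genes rose and 5.37% fell, and the median log2 fold change was −0.05 against −0.0047 over all genes. Cpeb4, a protein that binds U-rich elements and controls poly(A) tails, rose (178 ± 9.74 CPM with C-del against 150.5 ± 2.97 with mock, SD, n = 4 each; a log2 fold change of 0.24 ± 0.046, SE; edgeR, adjusted p = 0.00425), as did the poly(A)-binding protein gene Pabpc4 (0.15 ± 0.043; adjusted p = 0.0432). Cpeb4 kept its call in 13 of 15 alternatives and lost it in the joint fit of all libraries (adjusted p = 0.452), while Pabpc4 kept its call in 6 of 15. In females 0 of 23 passed with edgeR (1 higher and 2 lower with an unadjusted p below 0.05, 0 with DESeq2). Against female mock library 1 alone, likewise 0 genes of this list and of each list below passed in females with edgeR. The CCR4-NOT deadenylase genes themselves, Cnot7 and Cnot8 among them, passed in neither sex.

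Of 26 cell cycle genes tested in males, 1 rose and 1 fell, beside 11.2% of all genes called: Cdkn1a, which encodes the cyclin-dependent kinase inhibitor p21, was at 10.4 ± 1.14 CPM with C-del against 5.90 ± 1.12 CPM with mock (SD, n = 4 each; a log2 fold change of 0.80 ± 0.13, SE; edgeR, adjusted p = 0.00128). Cdkn1b, which encodes p27, was at 25.2 ± 1.36 against 32.6 ± 1.14 CPM (−0.38 ± 0.059; edgeR, adjusted p = 0.00107). Both calls held in all 15 alternatives run for males. In females 0 of 26 passed with edgeR (0 higher and 7 lower with an unadjusted p below 0.05, 0 higher and 2 lower with DESeq2), with a median log2 fold change of −0.27 against −0.01 over all genes. Against female mock library 1 alone that median was 0.10, of the other sign, against 0.0049 over all genes. The proliferation marker gene Mki67 was at −3.87 ± 1.15 (SE; edgeR, adjusted p = 0.227) with all mock libraries and at 2.15 against library 1 alone. Its level was low, at 0.522 ± 0.448 CPM in female C-del against 7.56 ± 9.52 CPM in female mock (SD, n = 4 and 3). Mcm5 was at −1.71 with all mock libraries and at −0.58 against library 1 alone. Averaged over both sexes, Cdkn1a rose (0.66 ± 0.14; edgeR, adjusted p = 0.0125) in all 20 alternatives too, whereas Cdkn1b (−0.20 ± 0.055; edgeR, adjusted p = 0.0472) kept its call in 5 of 20. In female mock against male mock 8 of 29 were higher and 1 lower, beside 12.7% and 10.6% of all genes, among them Cdkn1a (1.45 ± 0.21; edgeR, adjusted p = 0.000205) and the replication gene Mcm5 (1.61 ± 0.35; edgeR, adjusted p = 0.00395); without female mock libraries 2 and 3 the list had 3 calls, 1 higher and 2 lower, and Mcm5 did not pass (0.49; adjusted p = 0.554).

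The ErbB list, the receptors that Errfi1 inhibits and their ligands, had 7 genes with enough counts, and 0 passed with edgeR in males (2 higher and 0 lower with an unadjusted p below 0.05, 1 higher with DESeq2) or in females (1 higher and 0 lower unadjusted, 0 with DESeq2). The ligand gene Hbegf was at 26.2 ± 3.01 CPM with C-del against 19.4 ± 3.54 CPM with mock in males (SD, n = 4 each; a log2 fold change of 0.43 ± 0.13; edgeR, adjusted p = 0.0680). The receptor gene Erbb3 was at 9.95 ± 1.34 against 7.27 ± 1.81 CPM in females (SD, n = 4 and 3; 0.46 ± 0.19; edgeR, adjusted p = 0.391), with a log2 fold change of 0.10 against female mock library 1 alone.

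Other feedback inhibitors of receptor kinases and ERK changed in both directions in males, 3 of 26 higher and 3 lower (5.8% and 5.37% of all genes), around a list median of −0.05 on the log2 scale. The pseudokinase gene Trib1 rose (31.4 ± 0.880 CPM with C-del against 24.8 ± 1.11 with mock, SD, n = 4 each; 0.34 ± 0.056; edgeR, adjusted p = 0.00152), as did Spred3 (0.93 ± 0.20; adjusted p = 0.00901), a gene at 1.24 to 3.02 CPM by group. Grb10, an adaptor that restrains insulin and IGF receptors, fell (−0.52 ± 0.094; edgeR, adjusted p = 0.00327), as did the Sprouty gene Spry1 (−0.24 ± 0.068; adjusted p = 0.0341), which kept its call in 5 of 15 alternatives. In females 0 of 26 passed with edgeR (4 higher and 1 lower with an unadjusted p below 0.05, 2 higher with DESeq2). Averaged over both sexes, 4 rose and 1 fell, beside 2.42% and 1.99% of all genes. Spry4, another Sprouty gene, rose by 0.65 ± 0.10 (edgeR, adjusted p = 0.00188), with 10.2 ± 1.81 CPM in female C-del against 4.95 ± 0.818 CPM in female mock (SD, n = 4 and 3). In males Spry4 was at 12.1 ± 1.55 CPM with C-del against 10.1 ± 0.781 CPM with mock (SD, n = 4 each). Its male log2 fold change of 0.26 ± 0.10 (SE) did not pass (edgeR, adjusted p = 0.128). The MAP kinase phosphatase gene Dusp1 rose by 0.49 ± 0.11 (edgeR, adjusted p = 0.0181) and Trib1 by 0.35 ± 0.051 (adjusted p = 0.000864), and all 3 calls held in 20 of 20 alternatives. Dusp1 was at 101 ± 15.9 CPM in female C-del against 57.4 ± 17.5 CPM in female mock (SD, n = 4 and 3). In males it was at 94.1 ± 5.55 CPM with C-del against 85.0 ± 8.98 CPM with mock (SD, n = 4 each). In female mock against male mock, 10 of 26 were lower and 1 higher, beside 10.6% and 12.7% of all genes, with the phosphatase genes Dusp8 (−1.02 ± 0.13; edgeR, adjusted p = 5.90e-05) and Dusp16 (−0.97 ± 0.12; adjusted p = 6.93e-05) having the smallest adjusted p.

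Around Nedd9, the list of Cas adaptors and focal adhesion genes had 4 of 19 higher and 1 lower in males (5.8% and 5.37% of all genes), with a median log2 fold change of 0.05. Sh2d3c, an adaptor that binds Cas proteins, rose in males (18.1 ± 0.386 CPM with C-del against 10.7 ± 1.08 with mock, SD, n = 4 each; 0.76 ± 0.081; edgeR, adjusted p = 4.36e-05) and on average over both sexes (0.60 ± 0.066; adjusted p = 5.55e-05), in every alternative run. The focal adhesion genes Vcl (vinculin; 0.32 ± 0.061; edgeR, adjusted p = 0.00358) and Tln1 (talin; 0.19 ± 0.055; adjusted p = 0.0390) rose in males and the Src-family kinase gene Fyn fell (−0.41 ± 0.098; adjusted p = 0.0164), and all 3 lost their calls in the joint fit of all libraries. Vcl and Fyn kept them in 13 of 15 alternatives each and Tln1 in 5 of 15. In females 0 of 19 passed with edgeR (3 higher and 1 lower with an unadjusted p below 0.05, 0 higher and 1 lower with DESeq2), where Sh2d3c was at 13.3 ± 0.714 against 9.80 ± 0.678 CPM (SD, n = 4 and 3), with a log2 fold change of 0.44 ± 0.12, or 0.57 against female mock library 1 alone. Over both sexes 3 rose and 1 fell (2.42% and 1.99% of all genes), the last being the kinase gene Ptk2b (−1.74 ± 0.45; edgeR, adjusted p = 0.0434), whose log2 fold change ranged from −1.98 to −0.49 over 20 alternatives and kept its call in 5. Ptk2b was at 0.734 ± 0.313 CPM in female C-del against 6.06 ± 6.70 CPM in female mock (SD, n = 4 and 3). In males it was at 1.03 ± 0.426 CPM with C-del against 1.41 ± 0.362 CPM with mock (SD, n = 4 each).

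**Figure D5:**
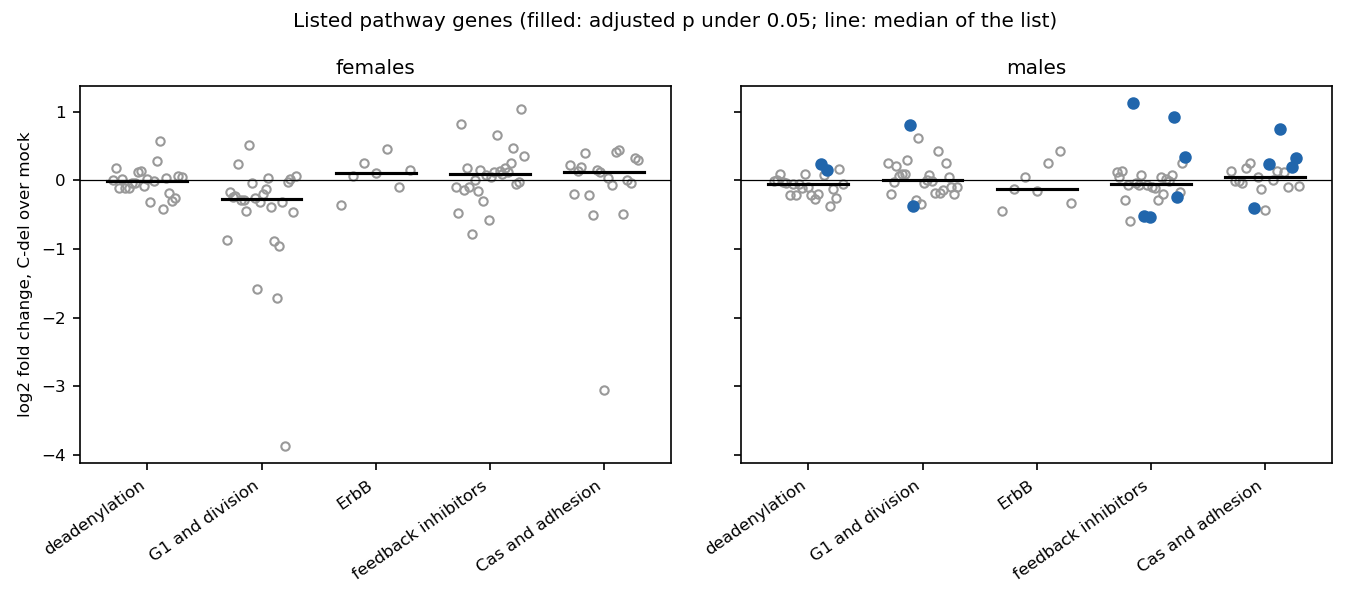
Log2 fold change of C-del over mock for every tested gene of 5 lists, in females (left) and males (right). Filled points passed edgeR's test at an adjusted p under 0.05, open points did not, and the short lines are list medians: no point is filled in females, and in males the filled points lie on both sides of 0 except in the ErbB list, which has none, and in the deadenylation list, where both lie above 0.

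Markers of other cell types were read beside these genes. Endothelial markers (12 genes) summed to 668 to 740 CPM in female C-del against 541 to 596 CPM in female mock, and to 776 to 816 against 750 to 798 CPM in males. Macrophage markers summed to 199.7 and 218 CPM in male C-del libraries 1 and 2 and to 65.8 and 84.4 CPM in libraries 3 and 4, against 80.8 to 97.0 CPM in male mock. Of 10 pericyte and smooth muscle markers 7 were lower in males by edgeR, and the sums were 1186 to 1213 CPM with C-del against 1350 to 1423 CPM with mock. The part of any of these cells in the levels of the 7 genes was not tested. Without male C-del libraries 1 and 2, the log2 fold change in males was 0.86 for Rhob, 0.73 for Tob2 and 1.37 for Nedd9, against 0.83, 0.64 and 1.503 with all 4 libraries.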

How the data were processed

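RNA-seq libraries of the tibialis anterior were analysed as 2 deposited tables, 1 for each sex. Their values are expected counts (estimated counts) per gene, of which 14.6% to 17.3% in each library were fractional, made with featureCounts 2.0.0 on GRCm38.p6, per the submitters' processing notes, and deposited without normalisation. Aligner, counting options and strand use: not given in the sources used here. Per the labels' protocols, the library kit was a stranded one for mRNA. Whole counts had been assumed in the design; the deposited values were rounded for the count tests.

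Of 42396 entries per table, 40017 had a RefSeq symbol and 2379 were further copies of one; 0 lacked a name and 0 sample columns were left unused. Genes kept by filterByExpr (minimum count 10) entered edgeR 4.0.16 (TMM factors, robust quasi-likelihood test, R 4.3.3, limma 3.58.1), with Benjamini-Hochberg adjustment over all genes tested and a call at an adjusted p under 0.05. C-del effects were fitted within each sex, and the average, the difference and the mock comparison in 1 joint fit of 15 libraries. SE was taken as log2 fold change over the root of F. CPM use the scaled library sizes of the joint fit, and correlations log2(CPM + 1). DESeq2 1.42.0, other size factors, no filter, no robust estimation, the joint fit, left-out libraries and a replicate block were alternatives. The tests were checked on simulated data. Of simulated 1.5-fold and 2-fold changes, 24% and 63.3% were recovered in females, and 54.2% and 84% in males. For the female minus male difference 14.3% and 49% were recovered, so genes that did not pass may still differ. Plots used Python 3.11.15, pandas 2.3.3, numpy 2.4.6 and matplotlib 3.10.9.

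Female libraries are numbered as in their titles. Columns of the male table match samples by group only, so male numbers are column numbers. The 7 genes, the 6 pathway lists (150 genes) and the 10 marker lists (84 genes) were chosen with earlier results of these data known. Results of 1 pathway list are not reported here. Named are the 7 genes and Lsmem2, up to 4 genes per pathway list and comparison (passing ones by smallest adjusted p, then others of at least 1 CPM by smallest p), and the 3 nearest genes of each of the 7; the text prints a part of them. Cnot8 is named beyond this rule, after its values were seen. The 7 genes had 63 to 4363 counts in a library, and the few libraries per group limit the precision.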

Additional observations from a re-analysis of the deposited data

Results flagged for a closer look

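Among female C-del libraries, library 3 had 17.8 CPM of Nedd9, apart from the other 3, which had 15.8, 15.96 and 15.96 CPM. The gap to its nearest neighbour was 0.923 of the whole range of the group, above Dixon's 95% critical value for 4 samples. Of 21 groups tested this was the 1 that stood out, and about 1 in 20 does so by chance.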

How the results depend on the processing

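For the 7 genes, 550 values under alternatives moved by less than the spread between libraries, 21 moved by more and 1 called value changed sign, Btg1 in female mock minus male mock, at −0.22 without female mock libraries 2 and 3. Counts of genes past the threshold moved more. The C-del effect in males (1624 genes) came to 380 in the joint fit of all libraries and 767 without male mock libraries 3 and 4. The C-del effect in females (2 genes) came to 777 in the joint fit, 16 with no low-count filter, 512 with DESeq2 and 4 without female mock libraries 2 and 3, and leaving out 1 library at a time gave 1 to 1050, the highest without mock library 1. The average C-del effect (673) came to 1083 with DESeq2 and 368 to 2085 with 1 library left out. The female minus male C-del effect (54) came to 666 with DESeq2 and 10 to 1817 with 1 library left out; the highest of both were without female mock library 1, and the lowest without female C-del library 4 for the average and library 2 for the difference. The comparison of female mock minus male mock (3556) came to 1808 without female mock libraries 2 and 3. With the female replicate block the C-del effect in females had 2 calls, as without it. Same-numbered female libraries did not deviate together (r = −0.13, −0.0092 and −0.039 over genes). Female mock libraries 2 and 3 stood apart, so these r cannot tell whether the numbers pair animals, and the labels do not say. The cause of these shifts was not tested. With both Errfi1 entries summed, chosen after seeing that they are equal, each difference of Errfi1 moved by less than its spread. That outcome follows from the entries being equal, and these values are among the 550. With 1 library left in a group, that library is assumed to vary like the others.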

Other observations

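Male C-del library 1 had the least Lsmem2 of its group, 487 CPM against 1300 to 2384 CPM, and was the lowest of the 4 for 0 of the 7 genes, next to lowest for 4, next to highest for 2 and highest for 1, with 28.8 CPM of Errfi1. Female C-del library 1, lowest in Lsmem2 of its group with 1336 CPM, was lowest for 2 genes, next to lowest for 1, next to highest for 1 and highest for 3, with 79.6 CPM of Btg2. These ranks are a description over 4 libraries per group.

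Other cell type markers read as follows. In males, edgeR called 1 of 12 endothelial markers lower, 0 of 8 fibroblast, 1 of 8 tenocyte (lower), 0 of 9 macrophage, 0 of 2 lymphocyte, 1 of 4 satellite cell (higher), 0 of 6 Schwann cell, 2 of 7 skeletal muscle fibre (higher) and 1 of 2 heart muscle markers (lower). In females 0 markers of any list were called with edgeR, while at an unadjusted p under 0.05 there were 5 higher of 12 endothelial, 8 lower of 9 macrophage, 2 lower of 2 lymphocyte and 3 higher of 10 pericyte and smooth muscle markers and 1 lower of 2 heart muscle markers. In female mock against male mock, 7 of 10 macrophage and 2 of 2 lymphocyte markers were higher and 10 of 10 pericyte and smooth muscle markers were lower, as were 6 of 12 endothelial markers, while 2 of 12 were higher. Male counts with an unadjusted p below 0.05 were 1 higher and 0 lower for fibroblast and 0 for macrophage, lymphocyte and Schwann cell markers.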
